A study of Mus musculus with 7 samples.

Results

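Myogenic transcription factors, the DNA-binding proteins that set the muscle program, were followed through RNA of cells sorted as satellite cells. The mice were kept in normocapnia or hypercapnia. The members were taken by name as the rows of the deposited gene table whose symbol was *Pax7*, *Pax3*, *Myf5*, *Myod1*, *Myog*, *Myf6*, *Mef2a*, *Mef2c* or *Tmem8c*, and all 9 were present among 23930 genes. The last of these encodes no transcription factor but myomaker, the membrane protein that fuses myoblasts, and stands at the end of the program as its output. Libraries came from inducible Pax7-GFP reporter mice, in which tamoxifen-activated Cre at the *Pax7* locus switches on a green protein (ZsGreen1) under the CAG promoter that stays on in the cell and its progeny whether or not *Pax7* is still made. From 12 weeks of age all mice spent 4 weeks in normocapnia (3 libraries, NC1, NC2 and NC3, room air) or hypercapnia (4 libraries, HC1, HC2, HC3 and HC4, air enriched in CO2), and hind leg muscles were digested and sorted for GFP at 16 weeks. Both groups were given tamoxifen, which the labels place at 12 weeks and the methods in the first 2 weeks of the exposure, as chow. The strain number in the genotype labels counts up from C57BL/6 over the libraries, whereas the growth protocol names a single strain. The methods describe freshly sorted cells collected 3 days after muscle injury by cardiotoxin, while the labels give no injury, and the table's title carries a time in hours. Which of these the libraries represent cannot be told apart here.

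Satellite cells are the stem cells of skeletal muscle. PAX7 and PAX3 keep their identity, MYF5 and MYOD1 commit them as myoblasts, myogenin (MYOG) and MRF4 (*Myf6*) drive terminal differentiation, and MEF2 proteins bind beside these factors at muscle genes. The 4 myogenic regulatory factors bind the E-box as dimers with ubiquitous partners of the E protein family, and myomaker is made as myoblasts begin to fuse.

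Each gene was read through 1 short amplicon and expressed as RPM, the reads of a gene scaled to a library total of 1000000. Library totals ran from 14527445 to 23388710 reads, so that 1 read was worth 0.0428 to 0.0688 RPM and a floor of 3 reads lay at 0.128 to 0.207 RPM. Amplicons differ in how well they copy, so levels were compared between libraries for 1 gene, and where genes are summed or called the most abundant this refers to amplicon reads. Neither the labels nor the methods state whether a library is 1 mouse, and p-values here measure the spread between libraries. Values of a group are given in the order of these library numbers. NC1 and NC3 stood apart from the other libraries, NC1 with the most RNA of satellite cell markers and NC3 with the least, and the comparisons are given with and without each of them. In RNA of a whole sorted sample, fewer cells of a type and less RNA per cell cannot be told apart.

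Promoters (250 bases before to 50 after the annotated start, RefSeq, GRCm38.p6) were found for 5 of the 9 members. They are shown for *Pax7*, *Myf5* and *Myog*, whose levels moved together across libraries, and for *Mef2a* and *Mef2c*, whose levels did not follow them. Capitals mark the E-box pattern CANNTG and the MEF2 core, read as TA, then 4 bases that are A or T, then TA. Both patterns read alike on either strand, and no match of one overlapped a match of the other. *Mef2c* has 3 annotated starts, of which the most upstream is shown.
Pax7, chr4:139832919-139833218, minus strand: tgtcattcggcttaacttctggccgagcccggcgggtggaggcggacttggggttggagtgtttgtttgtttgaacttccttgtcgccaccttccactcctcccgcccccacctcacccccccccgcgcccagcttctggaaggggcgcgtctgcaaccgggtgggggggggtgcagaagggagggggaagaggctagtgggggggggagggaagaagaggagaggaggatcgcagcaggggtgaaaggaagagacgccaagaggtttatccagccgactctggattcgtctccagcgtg
Myf5, chr10:107486085-107486384, minus strand: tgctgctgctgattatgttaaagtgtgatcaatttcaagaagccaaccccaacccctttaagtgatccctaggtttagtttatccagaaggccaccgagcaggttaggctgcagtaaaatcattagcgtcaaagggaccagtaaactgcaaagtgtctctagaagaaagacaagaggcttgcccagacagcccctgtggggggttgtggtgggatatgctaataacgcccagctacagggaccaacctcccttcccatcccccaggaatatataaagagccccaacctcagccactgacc
Myog, chr1:134289754-134290053, plus strand: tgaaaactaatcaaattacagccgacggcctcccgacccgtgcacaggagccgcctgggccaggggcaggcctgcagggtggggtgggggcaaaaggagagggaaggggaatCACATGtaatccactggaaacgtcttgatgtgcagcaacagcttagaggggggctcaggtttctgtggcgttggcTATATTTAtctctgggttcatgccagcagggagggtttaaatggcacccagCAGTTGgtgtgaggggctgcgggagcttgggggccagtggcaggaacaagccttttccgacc
Mef2a, chr7:67372809-67373108, minus strand: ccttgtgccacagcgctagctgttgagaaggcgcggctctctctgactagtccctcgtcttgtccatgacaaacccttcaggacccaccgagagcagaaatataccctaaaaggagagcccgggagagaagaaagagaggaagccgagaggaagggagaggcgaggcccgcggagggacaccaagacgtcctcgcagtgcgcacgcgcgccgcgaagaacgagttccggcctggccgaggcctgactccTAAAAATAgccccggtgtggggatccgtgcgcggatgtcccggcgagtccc
Mef2c, chr13:83503784-83504083, plus strand: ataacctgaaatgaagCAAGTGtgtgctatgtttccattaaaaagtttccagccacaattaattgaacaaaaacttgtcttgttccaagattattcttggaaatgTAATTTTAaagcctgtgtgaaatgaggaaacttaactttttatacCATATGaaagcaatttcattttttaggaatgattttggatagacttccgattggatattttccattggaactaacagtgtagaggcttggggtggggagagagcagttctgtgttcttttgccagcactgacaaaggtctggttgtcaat
The *Myog* window held 2 E-box matches, which begin 138 and 12 bases before the start, and 1 MEF2 core, TATATTTA, which begins 63 bases before it. The *Pax7* and *Myf5* windows held no match of either pattern, *Mef2a* had 1 MEF2 core across the start, and the *Mef2c* window shown had 2 E-boxes and 1 MEF2 core. Of 32851 promoter windows of this length, 72.3% held an E-box and 9.32% a MEF2 core, so an E-box match is the usual case, and a match is a description of the letters only.

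*Pax7*, whose locus carries the Cre of the reporter, was at 268, 8.25 and 4.34 RPM in normocapnia, and at 21.5, 20.1, 79.5 and 59.7 RPM in hypercapnia. The normocapnia group therefore held both the highest library and the 2 lowest ones, and the hypercapnia libraries lay between them. The fold change was 0.72 on the log2(RPM + 1) scale (SE 1.51, 95% interval -3.06 to 4.50, limma adjusted p = 0.976; exact permutation p = 0.714). *Pax3*, its paralog with a main role in embryonic muscle, was at 2.77, 0.171 and 0.620 RPM in normocapnia and at 0, 0.251, 0.5 and 0.406 RPM in hypercapnia, which is 0 to 9 reads in every library but NC1. Its fold change of -0.60 (SE 0.42, adjusted p = 0.915) rests on these few reads, and the groups overlapped.

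**Figure D1:**
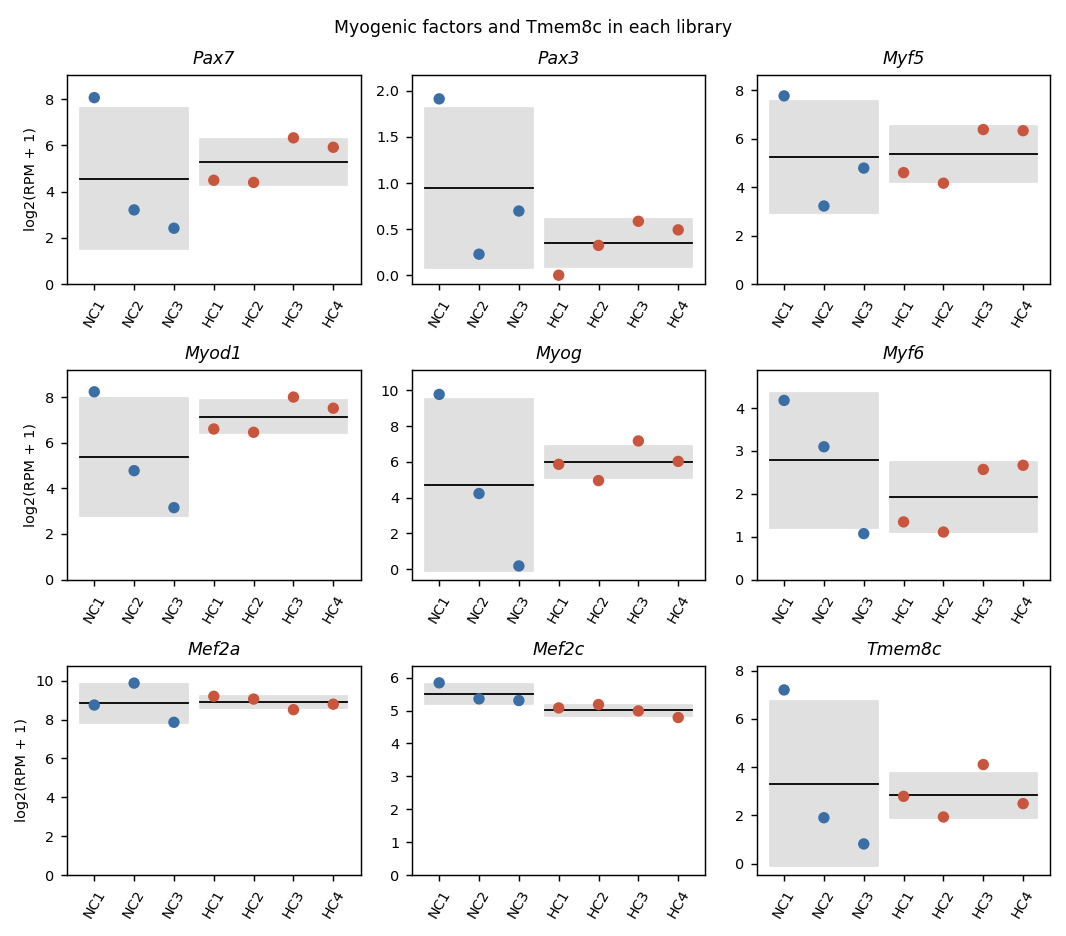
Level of each of the 9 genes in each library, as log2(RPM + 1) on axes of their own. Points are libraries (blue, normocapnia; red, hypercapnia), lines are group means and grey bands 1 SD on either side (n = 3 and n = 4). NC1 is the highest library for all genes but *Mef2a*, and the red points lie within the span of the blue ones for *Pax7*, *Myf5*, *Myod1*, *Myog*, *Myf6*, *Mef2a* and *Tmem8c*.

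The determination factors also had NC1 highest. *Myf5* was at 218, 8.34 and 26.6 RPM in normocapnia and at 23.3, 16.9, 82.3 and 79.6 RPM in hypercapnia, with a fold change of 0.11 (SE 1.25, 95% interval -3.00 to 3.22, adjusted p = 1). NC3 lay above HC1 and HC2 in *Myf5*, and NC2 was its lowest library. *Myod1* was at 302, 26.5 and 7.92 RPM in normocapnia and at 96.6, 87.2, 257 and 183 RPM in hypercapnia. Each hypercapnia library was above NC2 and NC3 and below NC1 in *Myod1*, and the fold change of 1.76 (SE 1.26, 95% interval -1.40 to 4.92) had an adjusted p of 0.915 with limma and p = 0.286 in the exact permutation test.

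The differentiation factor *Myog* had the widest spread of the members. It was at 871, 17.8 and 0.138 RPM in normocapnia, the last being 2 reads, below the floor, and at 57.2, 29.999, 143 and 64.2 RPM in hypercapnia. The ratio of NC1 to NC3 was 6325 from reads (exact 95% interval of counting error 1751 to 52240), against 4.76 times between the extreme hypercapnia libraries. The fold change was 1.27 (SE 2.27, 95% interval -4.40 to 6.94, adjusted p = 0.953). *Myf6*, the regulator that prevails in mature fibers, was low, at 17.1, 7.57 and 1.10 RPM in normocapnia and at 1.54, 1.16, 4.94 and 5.35 RPM in hypercapnia (fold change -0.86, SE 0.86, adjusted p = 0.915). NC2, low in the other 3 regulatory factors, was the second highest library in *Myf6*.

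The MEF2 pair did not share this spread. *Mef2a*, which is expressed well beyond muscle, was at 428, 935 and 231 RPM in normocapnia and at 585, 529, 362 and 441 RPM in hypercapnia, with NC2 highest, NC3 lowest and a fold change of 0.06 (SE 0.49, adjusted p = 1). *Mef2c*, a family member with a main role in forming muscle that macrophages and endothelial cells also express, was at 56.3, 39.9 and 38.5 RPM in normocapnia and at 32.8, 35.3, 30.7 and 26.6 RPM in hypercapnia. It was the 1 member whose groups did not overlap, with every hypercapnia library below every normocapnia library. Its fold change was -0.49 (SE 0.17, 95% interval -0.90 to -0.08, limma adjusted p = 0.915), that is 0.712 times the normocapnia level, a change smaller than the 1.5-fold the study required. The call differed between fits. With all 7 libraries *Mef2c* passed both of the study's thresholds under median-of-ratios scaling (-0.63, beside 1.23% of genes called lower), quantile normalization (-0.62, beside 1.49%) and DESeq2 (-0.64, beside 3.76%). It did not reach an unadjusted p under 0.05 with edgeR (-0.60 with a filter and -0.58 without), with limma on genes averaging 1 RPM or more (-0.49), with the replicate block (-0.42) or with the macrophage score as a covariate (-0.51). The two-sided exact permutation test gave p = 0.0286, the smallest that 3 against 4 libraries allow. Of 12504 genes averaging 1 RPM or more, 3.63% lay apart in the same direction.

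*Tmem8c*, the fusion gene, was at 147, 2.74 and 0.757 RPM in normocapnia and at 5.91, 2.81, 16.2 and 4.60 RPM in hypercapnia. NC1 stood far above the next library, HC3, while NC2 and NC3 lay below all 4 hypercapnia libraries. The fold change of -0.48 (SE 1.66, 95% interval -4.62 to 3.66) had an adjusted p of 1. It was larger in the tests that model mean reads, at -2.52 with filtered edgeR (adjusted p = 0.758), -2.55 with DESeq2, which gave no p, and -2.56 with unfiltered edgeR (adjusted p = 0.807), where *Tmem8c* was called lower by the study's thresholds beside 2.68% of genes.

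The spread within normocapnia was wide also by the standard of the other genes. Among 8229 genes averaging 10 RPM or more, the median gene spanned 1.26 log2 units over the normocapnia and 0.52 over the hypercapnia libraries, on log2(RPM + 1). *Pax7* spanned 5.66 and 1.93 units, *Myod1* 5.09 and 1.55, *Myf5* 4.55 and 2.22, and *Myog* 9.58 and 2.21. No other of these genes had a normocapnia range as wide as that of *Myog*, so its share of 0.0122% is *Myog* itself. That range rests on the 2 reads of *Myog* in NC3. A range as wide as that of *Tmem8c* occurred in 0.292% of these genes, of *Pax7* in 0.656%, of *Myod1* in 1.19% and of *Myf5* in 1.96%. Each share counts the member itself. The range of *Mef2a* was reached by 25.1% and that of *Mef2c* by 86.7% of genes.

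With all 7 libraries and RPM as deposited, none of the 9 members passed the study's thresholds in limma, which are 0.05 for the unadjusted p and 1.5 for the fold change and are what called means here, against 2.57% of all genes (615 of 23930). After Benjamini-Hochberg adjustment limma called 0% of genes, the lowest adjusted p being 0.351, with 1114 genes at an unadjusted p under 0.05, while edgeR called 0 and DESeq2 29 genes at an adjusted p under 0.05. For *Pax7*, *Myf5*, *Myog* and *Mef2a* the direction depended on how libraries were averaged. The arithmetic mean of *Pax7* was 93.6 ± 151 RPM (SD, n = 3) in normocapnia and 45.2 ± 29.3 RPM (SD, n = 4) in hypercapnia, lower in hypercapnia, whereas the mean of the logarithms was higher there. *Myog* behaved alike at 296 ± 498 against 73.5 ± 48.5 RPM, and so did *Myf5* at 84.2 ± 116 against 50.6 ± 35.3 RPM and, with a smaller difference, *Mef2a* at 531.3 ± 363.5 against 479.2 ± 97.85 RPM. *Myod1* was higher in hypercapnia on both scales, at 112 ± 165 against 156 ± 79.8 RPM. edgeR and DESeq2, which model mean reads, gave *Pax7* log2 fold changes of -0.84 and -0.87 and *Myog* -1.76 and -1.80, against 0.72 and 1.27 with limma. For *Mef2a* they gave -0.20 and -0.23, against 0.06.

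These values turned on single libraries. Without NC1, *Pax7* rose by 2.47 (SE 0.73, adjusted p = 0.339), *Myod1* by 3.18 (SE 0.70, adjusted p = 0.227) and *Myog* by 3.79 (SE 1.33, adjusted p = 0.418) on the log2 scale in limma, so that 3 of 9 members were called higher beside 6.25% of all genes. *Tmem8c* (1.47) and *Myf5* (1.36) had positive fold changes that did not pass. In the same fit 5 of 11 satellite cell markers were also called higher. Without NC3, no member was called higher, *Pax7*, *Myf5* and *Myog* had fold changes of -0.35, -0.13 and -1.0, and *Mef2c* was called lower at -0.59 (SE 0.18, adjusted p = 0.595), beside 1.59% of genes called lower. *Myf5* was negative also without NC2 (-0.91, its lowest value), HC3 (-0.23) or HC4 (-0.21), and *Mef2a* without NC3 (-0.42) or HC1 (-0.04). *Mef2c* kept its direction whichever library was left out, with fold changes between -0.59 and -0.32, as did *Myod1* between 0.64 and 3.18.

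**Figure D2:**
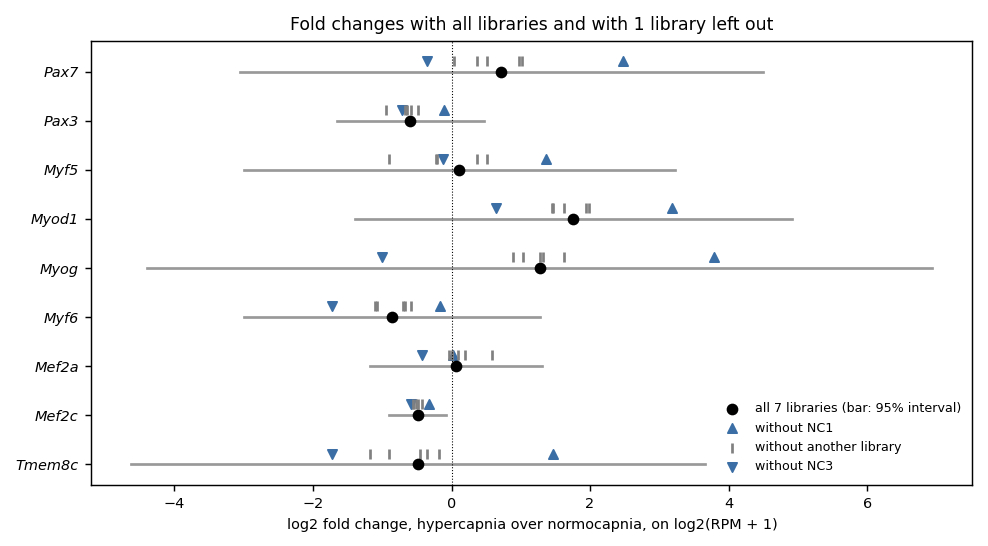
Fold change of each gene, hypercapnia over normocapnia, on the log2(RPM + 1) scale. Black points use all 7 libraries with the 95% interval of limma as a grey bar, upward triangles leave out NC1, downward triangles leave out NC3 and grey ticks leave out one of the others. The bars of all genes but *Mef2c* cross 0, and the triangles of *Pax7*, *Myf5*, *Myog*, *Tmem8c* and, by less, *Mef2a* lie on opposite sides of it.

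Most members rose and fell together from library to library. *Pax7*, *Myod1* and *Myog* ordered the 7 libraries identically, as NC1, HC3, HC4, HC1, HC2, NC2 and NC3 from high to low. Pearson's r with *Pax7*, on log2(RPM + 1) over 7 libraries, was 0.94 for *Myog*, 0.93 for *Myod1*, 0.91 for *Tmem8c* and 0.88 for *Myf5*, but -0.05 for *Mef2a* and 0.22 for *Mef2c*. Without NC1 and NC3, over 5 libraries, these became 0.93, 0.98, 0.77, 0.99, -0.96 and -0.88, and *Myf6* went from 0.69 to 0.08. All genes of a library share its sort, its depth and whatever other cells it holds, so these values describe the libraries.

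Ratios between members within a library show where the profile, rather than the total, differed. *Myod1* over *Pax7* was 1.12, 3.21 and 1.83 in normocapnia and 4.49, 4.34, 3.23 and 3.06 in hypercapnia, so NC2 overlapped the hypercapnia libraries and NC1 and NC3 lay below them. *Myog* over *Pax7* was 3.25 in NC1, 2.16 in NC2 and 1.08 to 2.66 in hypercapnia, but 0.0318 in NC3 (exact 95% interval of counting error 0.00376 to 0.119). *Myf5* over *Myod1* was 3.37 in NC3 and 0.194 to 0.721 in the other libraries. NC3 therefore stood apart in profile, with *Myf5* kept relative to *Myod1* and with almost no *Myog*. *Tmem8c* over *Myog*, a gene and a textbook regulator of it, was 0.168 in NC1, 0.154 in NC2 and 0.0717 to 0.114 in hypercapnia, lower in each hypercapnia library than in NC1 and NC2. In NC3 this ratio was 5.5 from reads (exact 95% interval of counting error 1.2 to 51.1), on 11 *Tmem8c* and 2 *Myog* reads.

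The labelled cell type was checked with 12 satellite cell markers that hold no member, of which 11 were in the table. Their summed level was 2974, 971 and 575 RPM in normocapnia and 685, 675, 1206 and 1048 RPM in hypercapnia. With all 7 libraries none of the 11 was called (median fold change 0.25). Without NC1 the median was 1.38, and *Cdh15* (2.63), *Itga7* (2.72), *Vcam1* (1.38), *Fgfr4* (2.09) and *Musk* (1.87) were called higher, beside 6.25% of all genes. Without NC3 the median was -0.63, and *Sdc4* (-0.77) was called lower, beside 1.59% of genes. *Cdh15*, the cadherin of satellite cells and myoblasts, was at 310, 8.12 and 6.54 RPM in normocapnia and at 37.6, 31.5, 85.7 and 63.6 RPM in hypercapnia, and *Itga7*, *Vcam1* and *Fgfr4* likewise had NC1 highest and NC3 lowest. *Chodl* (156, 11.8 and 67.4 RPM against 2.70, 4.87, 68.0 and 48.5 RPM), *Chrdl2* and *Calcr* had their lowest value in HC1 instead. *Sdc4*, a syndecan that many cells express, made up 24.3% to 80.4% of the sum. It was at 723, 781 and 441 RPM in normocapnia and at 429 to 450 RPM in hypercapnia (fold change -0.51, SE 0.21, limma adjusted p = 0.915). *Des*, *Megf10* and *Musk* had NC1 as the highest library as well.

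Set against this sum, *Myod1* was the 1 member whose groups lay apart. Its level was 10.1%, 2.73% and 1.38% of the marker sum in normocapnia and 14.1%, 12.9%, 21.3% and 17.4% in hypercapnia, a difference of 2.26 log2 units with a within-group SD of 0.96. The same held for 11.8% of the genes averaging 1 RPM or more. With *Sdc4* and *Vcam1* left out of the sum, *Myod1* again lay apart, as did 2.88% of genes, but relative to *Cdh15* alone its ratio was 0.972, 3.26 and 1.21 in normocapnia and 2.57 to 2.995 in hypercapnia, with NC2 above all of them. *Pax7* relative to the sum was 9.02%, 0.850% and 0.754% in normocapnia and 3.14%, 2.98%, 6.59% and 5.69% in hypercapnia, and relative to *Cdh15* it stayed between 0.572 and 1.02 in all 7 libraries. *Myog* relative to *Cdh15* was 2.81, 2.19 and 0.0211 in normocapnia and 0.954 to 1.67 in hypercapnia. With the mean log2 level of the markers as a covariate in limma, *Myod1* was called higher by 1.73 (SE 0.36, adjusted p = 0.306) and *Pax7* by 0.69 (SE 0.23, adjusted p = 0.472), beside 3.31% of genes called higher, and *Pax3* lower at -0.60 (SE 0.19, adjusted p = 0.470), beside 1.52% called lower.

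**Figure D3:**
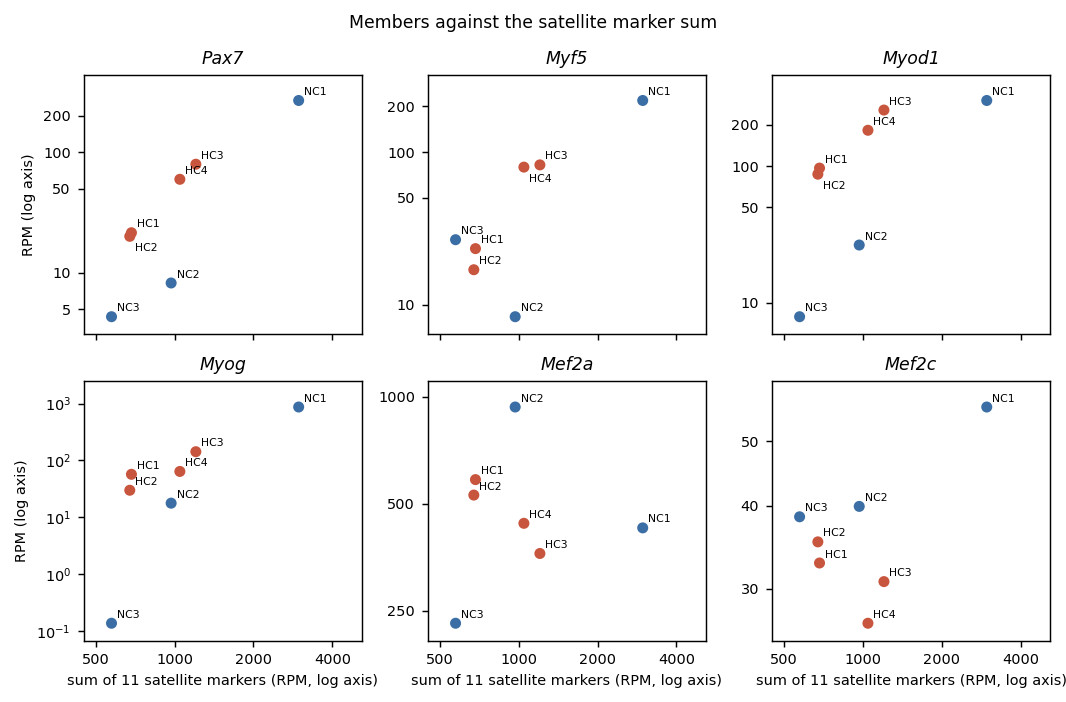
Level of 6 genes (RPM) against the summed level of 11 satellite cell markers (RPM) in the same library, both on log axes, each point a library (blue, normocapnia; red, hypercapnia). *Pax7*, *Myod1* and *Myog* rise with the marker sum from NC3 up to NC1 in all libraries but NC2, which lies below every red point in these 3 genes although its marker sum of 971 RPM exceeds those of HC1 and HC2. *Mef2a* has its highest point in NC2.

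**Figure D4:**
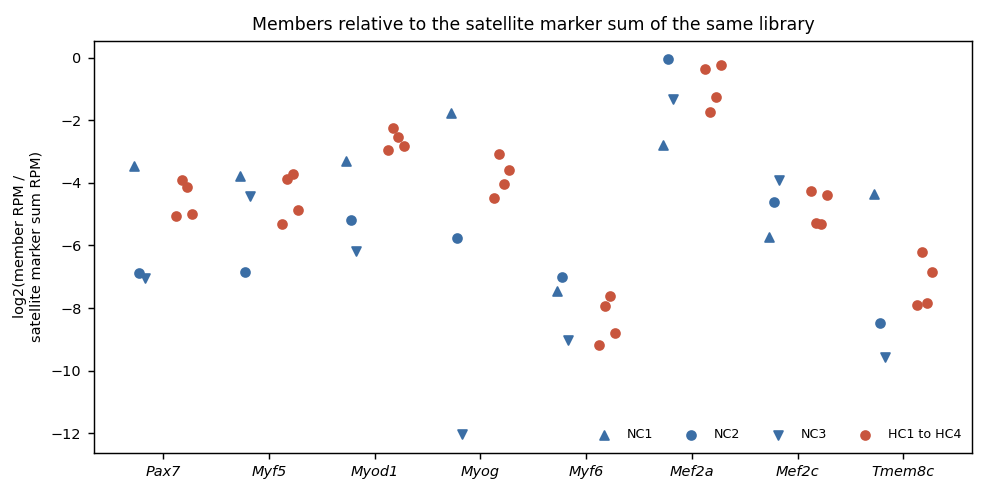
Level of each gene divided by the summed level of 11 satellite cell markers of the same library, as log2 of the ratio (blue, the 3 normocapnia libraries by symbol; red, the 4 hypercapnia libraries). *Pax3* is left out because it is at 0 in HC1. The red points lie above all blue points for *Myod1* only.

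Libraries also differed in sex-linked genes, although the labels give no sex (the methods use mice of both). *Xist*, the RNA of the inactive X chromosome, was at 701 and 619 RPM in NC1 and NC2 and at 445 and 475 RPM in HC1 and HC2, and at 0 to 0.125 RPM in NC3, HC3 and HC4, where the Y-linked *Ddx3y* was at 206, 126 and 103 RPM. Within hypercapnia, the mean RPM of *Pax7*, *Myf5*, *Myod1*, *Myog*, *Myf6* and *Tmem8c* in HC3 and HC4 was 2.37 to 4.03 times that in HC1 and HC2. For *Mef2a* and *Mef2c* it was 0.721 and 0.843 times. HC3 and HC4 also had more satellite marker RNA (1206 and 1048 against 685 and 675 RPM) and endothelial RNA (642 and 483 against 84.7 and 67.2 RPM). Their fibro-adipogenic, myofiber and neutrophil sums were higher too, and their macrophage sums lower. The part of these differences was not tested. Among libraries with *Xist* (2 against 2), fold changes were -1.19 for *Pax7*, -1.11 for *Myf5*, 0.03 for *Myod1* and -1.59 for *Myog*, none called, and *Myf6* was called lower at -2.41 (SE 0.50, adjusted p = 0.413), beside 2.64% of genes called lower. Among libraries without it (NC3 against HC3 and HC4), *Pax7* (3.71), *Myf5* (1.57), *Myod1* (4.61), *Myog* (6.41) and *Myf6* (1.55) passed the thresholds, beside 17.1% of genes called higher, in a fit where the lone NC3 is assumed to vary like the other libraries. Normocapnia is here 1 library, the one with the least satellite marker RNA, so the group and that library cannot be told apart in these values. The difference between these 2 sets, tested as an interaction in limma, reached an unadjusted p under 0.05 for *Myf6* (adjusted p = 0.0861) and not for the other 8 members (adjusted p of 0.324 to 1), beside 21.2% of genes that reached it, and rests on NC3 in the same way. *Mef2c* had fold changes of -0.47 and -0.42 in the 2 sets. With *Xist* as a covariate no member was called, and *Myod1* had a fold change of 1.90 (SE 1.39, adjusted p = 0.854). Beyond these values, the part of *Xist* status in the results was not tested.

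Genes around the members were taken from lists of their partners, inhibitors and targets. Of 18 partners (E proteins, homeobox and TEAD factors and others), 9 had positive and 9 negative fold changes, with a median of 0.06 beside 0.16 over genes averaging 1 RPM or more. *Tcf12*, an E protein that dimerizes with the regulatory factors, was the 1 gene called among the 18 partners, 17 inhibitors and 27 targets, beside 2.57% of all genes called in either direction and 1.14% called lower. It was at 185, 99.7 and 163 RPM in normocapnia and at 80.7, 88.7, 114 and 92.9 RPM in hypercapnia, a fold change of -0.62 (SE 0.24, adjusted p = 0.915) with overlapping groups, and was not called without NC1 (-0.45) or without NC3 (-0.54). The other abundant partners, *Tcf4* (-0.07) and the methyltransferase *Carm1* (0.25), were not called.

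Of 17 inhibitors, among them the ID proteins, which take E proteins away from the regulatory factors, 12 had positive and 5 negative fold changes (median 0.09) and none was called. *Id1* was at 219, 48.5 and 8.54 RPM in normocapnia and at 82.9, 87.0, 152 and 153 RPM in hypercapnia, with NC1 above and NC2 and NC3 below all 4 hypercapnia libraries, as for *Myod1* (fold change 1.29, SE 1.08, adjusted p = 0.915). The most abundant inhibitors were *Bhlhe40* (0.12), *Hdac5* (0.09) and *Id2* (0.81), with *Id2* lowest in NC3 at 29.5 RPM and at 135 to 175 RPM elsewhere.

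Of 27 differentiation targets, 9 had positive and 18 negative fold changes (median -0.30), and none was called. Myomixer (*Gm7325* in the table), which fuses myoblasts together with myomaker, was at 25.7, 0.898 and 0 RPM in normocapnia and at 2.14, 0.352, 3.31 and 2.30 RPM in hypercapnia. The acetylcholine receptor subunits *Chrna1* (fold change 1.94) and *Chrnd* (1.80) had the largest positive values, and *Mustn1* (-1.53) and the myosin gene *Myh8* (-1.40) the largest negative ones. *Chrnd* was at 75.8, 1.67 and 1.03 RPM in normocapnia and at 18.5, 18.3, 34.7 and 32.8 RPM in hypercapnia, so that NC1 alone lay above the hypercapnia libraries. The cell cycle inhibitor *Cdkn1c* was at 939, 21.5 and 2.75 RPM against 23.1, 12.6, 76.2 and 36.2 RPM. The most abundant targets, the contractile genes *Tnnt3* (0.07), *Mylpf* (-0.57) and *Myl1* (-0.87), had NC1 highest and HC4 second.

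Leaving out NC1 moved the medians of partners, inhibitors and targets to 0.78, 0.89 and 1.07, with 4, 2 and 7 genes called higher, beside 6.25% of all genes, and none lower. They included *Tead2* and *Six4* among partners, *Id1* and *Snai2* among inhibitors, and *Chrnd*, *Chrna1*, *Chrng*, *Dok7*, *Rbm24*, *Ttn* and *Tnni1* among targets. Leaving out NC3 moved the medians to -0.50, -0.28 and -1.34, with 1 gene of each list called lower (*Tcf3*, *Hdac4* and *Acta1*), beside 1.59% of all genes. The medians of the members moved in the same way, from 0.06 to 1.36 and -0.59.

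**Figure D5:**
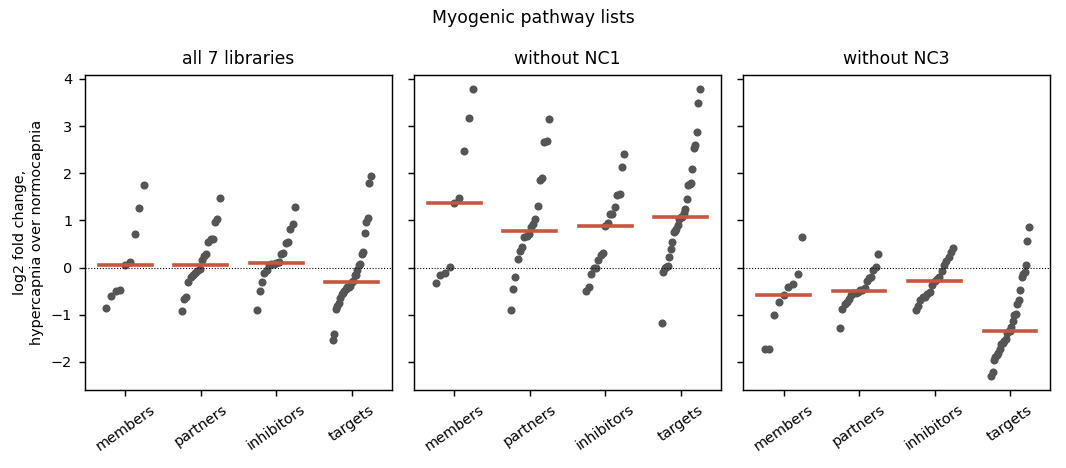
Fold changes, hypercapnia over normocapnia on the log2(RPM + 1) scale, of the 9 members, 18 partners, 17 inhibitors and 27 targets, each point a gene and each red line the median of its list. From left to right all 7 libraries, NC1 left out and NC3 left out are shown, and the medians are 0.06, 0.06, 0.09 and -0.30, then 1.36, 0.78, 0.89 and 1.07, then -0.59, -0.50, -0.28 and -1.34.

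Genes with a profile most like that of *Pax7* were sought among 8222 other genes averaging 10 RPM or more, by Pearson's r over 7 libraries. They were *Tbx4* (0.9985), *Hoxa9* (0.9981), *Cd82*, *Ncam1* (both 0.9976) and *Cdon* (0.9969). *Cdon*, a cell surface protein of myogenic cells, was at 351, 18.6 and 8.05 RPM in normocapnia and at 42.3, 36.3, 132 and 102 RPM in hypercapnia, and *Tbx4*, a hindlimb T-box factor, at 46.5, 2.651 and 1.45 against 6.51, 7.04, 18.9 and 15.0 RPM. For *Myog* they were *Dbp* (0.9952), *Olfml2b* (0.9920), *Sytl2* (0.9919), *Psma4* (0.9900) and *Hmgn3* (0.9894). *Olfml2b* was at 905, 34.0 and 5.51 RPM against 108, 89.9, 212 and 152 RPM, with the library order of *Myog*. For all 10 genes NC1 was the highest library and NC3 the lowest.

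Macrophage and fibro-adipogenic markers were plentiful in every library. In amplicon reads, the macrophage sum exceeded the satellite marker sum, which ran from 575 to 2974 RPM, in each library. The summed level of 16 macrophage genes was 13950, 25180 and 37780 RPM in normocapnia and 21800 to 27040 RPM in hypercapnia, lowest in NC1 and highest in NC3. This order of the sum rested on *Lyz2*, which made up 52.9% to 77.0% of it. Without *Lyz2* the sum was 5593, 11870 and 8674 RPM in normocapnia and 7344 to 10310 RPM in hypercapnia, lowest in NC1 and highest in NC2, and NC3 was the highest library for 2 of the 16 genes (*Lyz2* and *Tyrobp*) and the lowest for 7. Of these 16 genes 15 averaged 1 RPM or more and 2 were called higher in hypercapnia, beside 1.43% of all genes. *Adgre1*, the F4/80 antigen, was at 109, 149 and 70.5 RPM in normocapnia and at 392, 429, 151 and 184 RPM in hypercapnia (fold change 1.31, SE 0.49, adjusted p = 0.915). *Aif1* was at 115, 127 and 67.5 RPM against 319, 343, 164 and 138 RPM (1.16, SE 0.44, adjusted p = 0.915). The groups lay apart in both genes, as in 4.09% of the genes averaging 1 RPM or more with hypercapnia higher. *C1qa*, a defining macrophage gene, was at or near 0 (0 to 0.452 RPM) while *C1qb* was at 158 to 1061 RPM. *Lyz2*, the most abundant, was at 8354, 13313 and 29108 RPM in normocapnia and at 13410 to 16728 RPM in hypercapnia. Myofiber gene sums (10 genes, none called) were 2038, 618 and 89.1 RPM in normocapnia and 160 to 1068 RPM in hypercapnia, with NC1 highest and NC3 lowest of all 7. Endothelial sums (10 genes, none called) were 94.5 to 271 RPM in normocapnia, 67.2 and 84.7 RPM in HC2 and HC1, and 642 and 483 RPM in HC3 and HC4. Fibro-adipogenic sums (9 genes, none called) were 1130 to 1995 RPM and 1013 to 2520 RPM, neutrophil sums (10 genes, of which *Mmp8* was called higher at 1.25 with groups apart) 82.5 to 230 RPM and 106 to 331 RPM, and lymphocyte sums (9 genes, none called) 1.51 to 13.7 RPM and 9.31 to 10.8 RPM, with *Ly6g* and *Cd3d* at or under the floor in all libraries. The part of these other cells in the members' values was not tested beyond the fits that carry a marker score, and none of the members was called in the fit with the macrophage score.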

How the data were processed

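The authors deposited 1 table of RPM for 23930 genes, made from Ion AmpliSeq mouse transcriptome libraries read on an Ion S5, in which each column sums to 1000000 within rounding. Their processing notes name the Transcriptome Analysis Console, and neither an aligner nor a genome build is given in the sources used here. Groups were taken from the treatment label and numbers from the titles. Whole reads were recovered from the RPM steps (100% of values within 0.05 reads), which gives the library totals. Intervals and floors cover counting error only. The members and the lists of partners, inhibitors, targets and cell markers were chosen with earlier results of these data known. They were written from general knowledge, and *Mef2b*, *Meis1*, *Id4*, *Twist2*, *Bhlhe41*, *Tnnc2*, *Spry1*, *Cd79a* and *Pi16* of them were not analysed here.

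Hypercapnia was compared with normocapnia with limma 3.58.1 (R 4.3.3), fitted to log2(RPM + 1) of the unfiltered table. A gene was called, as in the study, where its fold change exceeded 1.5 and its unadjusted p was under 0.05, and Benjamini-Hochberg adjusted values cover the whole table. Exact permutation tests of single members enumerated all 35 assignments and were added after seeing the data. All p-values are two-sided, and the pseudocount of 1 RPM tends to understate the change of low genes, though not of *Tmem8c*. Alternatives were a pseudocount of 0.1 or 5 RPM, genes averaging 1 RPM or more alone, scaling by median of ratios or quantiles, a prior variance trended on the mean, edgeR 4.0.16 (quasi-likelihood, filtered and unfiltered) and DESeq2 1.42.0 on the recovered reads, each library left out in turn, a block for the replicate number, and covariates (the mean log2 level of satellite or macrophage markers, or *Xist*). Fits to libraries with *Xist* above or below 1 RPM, and their interaction with the group, were chosen after seeing the data. Members were divided by the summed satellite markers, by that sum without *Vcam1* and *Sdc4*, and by *Cdh15* alone. Named genes are all members and satellite markers, list genes that were called, the 3 most abundant of the partner, inhibitor and target lists, and the 5 most like *Pax7* and *Myog*. *Id1*, *Gm7325*, *Chrna1*, *Chrnd*, *Cdkn1c*, *Mustn1*, *Myh8*, *Tyrobp*, *C1qa*, *C1qb*, *Ly6g*, *Cd3d* and genes called with a library left out are named besides, a choice made with their values in view, and 1 item is not reported here. The scripts were tested on simulated data. Deviations of same-numbered libraries from their group means had r of -0.349, 0.503 and -0.044 for numbers 1 to 3. HC2 was the best match of NC2, while NC1 and NC3 matched other numbers best. These few values cannot settle whether the numbers pair libraries.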

Additional observations from a re-analysis of the deposited data

Results flagged for a closer look

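The hypercapnia effect on *Myf6* differed by -3.96 log2 units between the libraries with *Xist* above 1 RPM (fold change -2.41, 2 normocapnia against 2 hypercapnia libraries) and those below it (1.55, NC3 against HC3 and HC4), and it was picked out by its interaction term in limma, whose unadjusted p was under 0.05, as for 21.2% of all genes, and whose adjusted p of 0.0861 does not pass. The second set has 1 normocapnia library, NC3, which also had the least satellite marker RNA, so the difference rests on that library, and the group and that library cannot be told apart there.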

How the results depend on the processing

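*Mef2c* (-0.64 to -0.32) and *Myod1* (0.03 to 4.61) kept their direction in all 22 alternative fits, and *Pax3* (-2.06 to -0.11) in the 20 it was in, since both filters on low genes removed it. The other members did not, and no cause was tested beyond what the left-out library shows. With all 7 libraries 0 members and 1 pathway gene (partners, inhibitors and targets) were called. No member was called after adding 0.1 or 5 RPM to each value instead of 1, with *Myog* at 2.03 and 0.55, *Pax3* at -1.36 and -0.20, *Pax7* at 0.82 and 0.43 and *Tmem8c* at -0.23 and -0.72. With median-of-ratios scaling 1 member and 3 pathway genes were called, with *Myf5* at -0.03 and *Mef2a* at -0.08, and with quantile normalization 1 and 3, with *Myf5* at -0.08; the member called was *Mef2c* (-0.63 and -0.62). Over genes averaging 1 RPM or more the median fold change was 0.16 on RPM, 0.04 and -0.01 under these scalings, and the genes called higher and lower were 343 and 272, 317 and 295, and 336 and 357. edgeR with a filter called 802 genes (294 higher, 508 lower) and 3 pathway genes, with *Pax7* at -0.84, *Myf5* at -0.62, *Myog* at -1.76 and *Mef2a* at -0.20. Without a filter it called 1049 genes, 1 member (*Tmem8c*, -2.56) and 7 pathway genes, with -0.88, -0.65, -1.80 and -0.20. DESeq2 called 1304 genes, 1 member (*Mef2c*, -0.64) and 6 pathway genes, with -0.87, -0.67, -1.80 and -0.23 for these 4 members, and gave no p for *Myog* and *Tmem8c*. The replicate block called 598 genes, no member and 0 pathway genes, with *Myf5* at -0.21. The satellite score as a covariate called 1154 genes, 3 members and 7 pathway genes. With the macrophage score 0 pathway genes were called, *Mef2a* was at -0.44, *Tmem8c* at 0.03, *Pax7* at 1.42 and *Myf5* at 1.18. With *Xist* 1316 genes and 2 pathway genes were called, with *Myf5* at -0.06. Libraries with *Xist* above 1 RPM alone gave 1015 genes, 1 member and 4 pathway genes, with *Pax7* at -1.19, *Myf5* at -1.11, *Myog* at -1.59 and *Mef2a* at -0.19, and those below it 4976 genes, 5 members and 29 pathway genes, with *Myf6* at 1.55 and *Tmem8c* at 2.48. Leaving out 1 library gave 376 to 1990 genes, 0 to 3 members and 0 to 13 pathway genes, and fold changes of -0.35 to 2.47 for *Pax7*, -0.91 to 1.36 for *Myf5*, -1.0 to 3.79 for *Myog*, -0.42 to 0.58 for *Mef2a*, -1.72 to 1.47 for *Tmem8c* and -1.72 to -0.16 for *Myf6*. Divided by *Cdh15* in place of the marker sum, log2 differences turned from 1.27 to -0.15 for *Pax7*, 0.58 to -0.85 for *Myf5*, 0.50 to -0.92 for *Mef2a* and 0.26 to -1.16 for *Tmem8c*, and went from 2.26 to 0.84 for *Myod1*, 2.73 to 1.30 for *Myog*, -0.56 to -1.98 for *Myf6* and -0.07 to -1.49 for *Mef2c*. Leaving *Vcam1* and *Sdc4* out of the sum turned *Tmem8c* alone of these, to -0.23. Values of *Pax3* and of *Myog* in NC3 rest on few reads, so the size of differences that involve them is imprecise at this depth.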
